A study of Homo sapiens with 6 samples.

Results

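Interferon-stimulated genes are the genes that a cell switches on when an interferon binds its receptor, and 47 of them were followed here through the transcriptomes of a human esophageal squamous cell carcinoma (ESCC) line and of a clone edited in NFE2L2, the gene of the transcription factor NRF2. The 47 genes were taken by symbol from a list of well-known interferon-stimulated genes, and each symbol matched 1 of the 58884 genes in the deposited table. The list was chosen with earlier results of these data known. KYSE70 is an established ESCC line that carries a mutant NFE2L2 allele. NRF2null-KYSE70 was grown from a single KYSE70 cell after CRISPR-Cas9 cutting of a coding exon of NFE2L2, which left a frameshift deletion, although the study's own blots and RT-PCR still showed a faint shorter NRF2 band and remaining transcript variants. Both lines were untreated, grew in RPMI1640 with serum, received no interferon and gave 3 libraries each. Because the edited line is 1 clone, its libraries measured the spread between cultures or library preparations of that clone, not between clones, and the effect of the NFE2L2 edit and any other property of the clone cannot be told apart.

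Type I and type III interferons act through receptor-bound Janus kinases, which phosphorylate STAT factors such as STAT2. With IRF9, these form a complex that binds the interferon-stimulated response element (ISRE) in the promoters of antiviral genes, while type II interferon acts mainly through STAT pairs at a different element, the gamma-activated site (GAS). In epithelial cells many of these genes are also kept at a low level without added interferon, and their products sense viral RNA, cut or edit it, block viral entry, or feed back on the pathway.

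The libraries held between 52072801 and 63975313 reads assigned to genes, recovered from the normalized counts, and no pair of libraries agreed within sampling noise. NFE2L2 itself was lower in the clone, with normalized counts of 9928 ± 102 in the parental line and 6093 ± 319 after editing (SD, n = 3), 61.4% of the parental level. Markers of squamous epithelium were abundant in every library. They summed to between 352773 and 362703 normalized counts in KYSE70 and between 266534 and 282117 in the clone. The genes of this list went both ways. KRT5 (log2 fold change -0.75), TP63 (-0.92), SFN (-0.93) and PERP (-0.47) were lower. KRT6A (0.69), KRT17 (0.66), DSP (0.26) and SOX2 (0.15) were higher. Of the general epithelial markers, EPCAM (0.30) and CDH1 (0.60) were higher, KRT8 (-0.72) was lower, and KRT18 (-0.04) did not pass the test. Of the markers of other cells, all 4 genes of the T and NK cell list were at or under 3 reads per library in both lines, and the 6 macrophage and dendritic cell markers summed to between 3.56 and 14.8 in KYSE70 and between 3.92 and 12.6 in the clone. The other lists held genes that differed. Of 3 leukocyte genes, PTPRC had 0, 0 and 1.05 normalized counts in KYSE70 and 42.6, 40.2 and 47.9 in the clone, LCP1 was higher (log2 fold change 1.29) and CORO1A lower (-0.73), and the list summed to between 132 and 146 in KYSE70 and between 121 and 223 in the clone. The 6 fibroblast markers summed to between 1384 and 1618 in KYSE70 and between 485 and 638 in the clone. Among them COL3A1 (-4.79) and COL1A1 (-1.16) were lower, PDGFRB had no read in KYSE70 and 41 in the clone, and COL1A2 and DCN had no read. Of 4 endothelial markers, 3 were at the floor of 3 reads in both lines and VWF was higher (1.28), with a list sum between 133 and 149 in KYSE70 and between 275 and 450 in the clone. Of 3 B cell markers only CD79A had reads, summing to between 7.26 and 17.9 in KYSE70 and between 0 and 1.01 in the clone. The part of such cells in the results below was not tested. These were bulk libraries, so fewer cells with a transcript and less transcript per cell cannot be told apart.

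Interferon-stimulated genes moved in both directions between the lines. DTX3L and PARP9, which encode a ubiquitin ligase and its partner, had at most 1 read in KYSE70 and were readily detected in the clone. SP110, OAS1, OAS3, IFI16, IFI6 and IFI27 fell to between 11.3% and 39.2% of the parental level. Of the 47 genes, 44 had at least 1 read and 37 averaged 10 normalized counts or more across all 6 libraries and were tested. With limma on the log2 scale, 5 of these were higher and 8 lower in the clone at an adjusted p under 0.05 and a change of at least 1 log2 unit. That is 13 of 37, or 35.1%, and the same thresholds called 14.7% of the 15994 genes tested, 7.23% higher and 7.43% lower. At the adjusted p alone, 7 of the 37 were higher and 17 lower, and across all tested genes 29.3% were higher and 28.3% lower. These 24 genes are 64.9% of the 37, beside 57.6% of all genes tested. The median log2 fold change of the 37 genes was -0.22, beside -0.007 for all genes tested, and the median absolute change was 0.68 beside 0.36. The groups did not overlap for 8 genes that were higher and 19 that were lower in the clone, where 32.1% of all tested genes were higher without overlap and 31.3% lower. For 6 of the 37 (IFIH1, OAS2, CMPK2, PARP9, DTX3L and IFI27), the mean reached 10 only in the line with the higher level, so the choice of tested genes favoured a difference for them. All 6 passed the threshold without overlap. The 35.1%, the 64.9%, the counts without overlap and the median absolute change of 0.68 therefore rest in part on them. The values for all genes tested were not recomputed without such genes. The adjusted p-values of these 6 genes, given below, carry the same limit. Without these 6, there were 2 genes higher and 5 lower past the threshold.

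**Figure D1:**
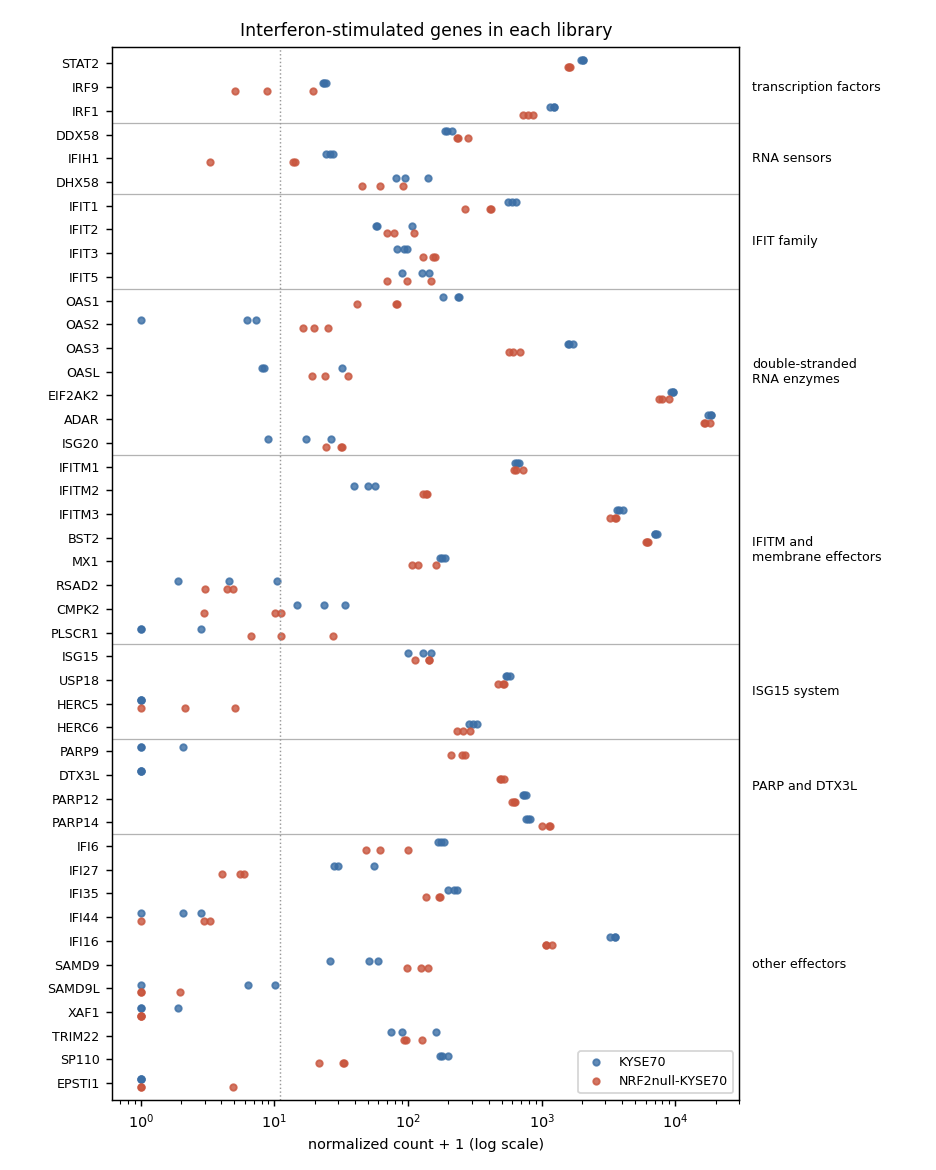
Normalized count plus 1 (log axis) of the 44 interferon-stimulated genes with at least 1 read, in rows ordered by role, with 1 point for each of 3 KYSE70 (blue) and 3 NRF2null-KYSE70 (red) libraries and a dotted line at the mean of 10 needed for testing. DTX3L sat at 0 in KYSE70 and between 483 and 520 in the clone, whereas ADAR, BST2 and EIF2AK2 lay close together in the 2 lines.

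Promoter sequence was examined first, because the ISRE is the element through which type I and type III interferons act on antiviral genes. RefSeq (GRCh38.p14) gave a window from 250 bases before to 50 bases after the transcription start for 38 of the 47 genes. The ISRE core searched for was GAAA, then any 2 bases, then GAAA, on both strands. It was present in 25 of the 38 genes, or 65.8%. Over all genes with a window it was in 4.38% of 27305, and in 3.57% of the 35116 single windows. Of the genes past the threshold with a window, it was found in 3 of 3 that were higher (DTX3L, PARP9 and SAMD9) and in 4 of 8 that were lower (IFIH1, OAS3, IFI6 and IFI27), and it was found in 18 of the 27 others. The stretches below show 1 match for each of the called genes, with 6 sequences for 7 genes because DTX3L and PARP9 share theirs. Each is written from 5′ to 3′ on the gene's own strand, and the capitals mark the match.
IFIH1: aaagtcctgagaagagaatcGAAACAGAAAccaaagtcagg
OAS3: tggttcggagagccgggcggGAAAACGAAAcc
IFI6: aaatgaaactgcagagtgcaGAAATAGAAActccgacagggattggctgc
IFI27: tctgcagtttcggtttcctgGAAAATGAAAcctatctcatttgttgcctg
SAMD9: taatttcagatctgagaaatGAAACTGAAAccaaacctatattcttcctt
PARP9: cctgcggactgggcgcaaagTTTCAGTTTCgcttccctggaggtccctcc

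In the same build these stretches lie at chr2:162318685-162318725 on the minus strand (IFIH1), chr12:112938442-112938473 on the plus strand (OAS3), chr1:27672256-27672305 on the minus strand (IFI6), chr14:94110621-94110670 on the plus strand (IFI27), chr7:93118086-93118135 on the minus strand (SAMD9) and chr3:122564312-122564361 on the minus strand (PARP9). The match began 21 bases before the start in IFIH1, 12 in OAS3, 41 in PARP9, 93 in IFI6, 95 in IFI27 and 136 in SAMD9. In PARP9 it was read on the opposite strand, so that the same 10 bases, chr3:122564332-122564341, are GAAACTGAAA at the promoter of DTX3L. The DTX3L start, chr3:122564338, lies within these bases. It is 38 bp from the PARP9 start of this window and points the other way. The GAS, searched as TTCNNNGAA, was in 12 of the 38 genes (31.6%) and in 9.38% of all genes with a window. The core of the antioxidant response element, to which NRF2 binds, was searched as TGACNNNGC and was in 9 of the 38 (23.7%) and in 16.1% of all genes with a window. It was in the windows of PARP9, IFI27, OAS1 and SP110 among the genes past the threshold. These matches describe letters in a window and were not tested against the changes.

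DTX3L and PARP9 form a complex that attaches ubiquitin and ADP-ribose to targets at DNA breaks and at antiviral genes. DTX3L lies at chr3:122564338-122575203 on the plus strand (hg38, GENCODE). It had no read in any KYSE70 library and 520, 483 and 498 normalized counts in the clone, which is at least 176-fold higher if a floor of 3 reads is set for each parental library. The fitted log2 fold change was 8.97 ± 0.36 (SE; adjusted p = 6.5e-10, limma), a value that depends on the pseudocount of 1. DTX3L entered the test only through its level in the clone, so the adjusted p is not separate support for the difference. PARP9 lies head to head with it at chr3:122527924-122564577 on the minus strand. It had 0, 0 and 1.05 normalized counts in KYSE70 and 208, 252 and 265 in the clone. The parental value rests on a single read. The ratio of reads pooled over each line and scaled for depth was 765, with a 95% counting interval of 137 to 30247. Both genes were therefore separated completely between the lines, and no library of either line fell near the other line's range. Levels per kilobase of exon divide by the combined length of all annotated exons of a gene, not by the length of 1 transcript. On this measure, the clone held 86.8 normalized counts of DTX3L and 27.0 of PARP9. Their annotated exons share 139 bases on opposite strands, 2.4% of the exon length of DTX3L, and reads from that overlap cannot be assigned to 1 gene without strand information, whose use in counting is not given in the sources used here.

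Several neighbours of this gene pair were also higher, by less. Of the 10 other genes tested within 250 kb of DTX3L, 3 were higher past the threshold, namely PARP9, the cysteine protease inhibitor CSTA (log2 fold change 1.99) and the noncoding gene AC083798.2 (1.10). KPNA1 (0.71) and HSPBAP1 (0.95) rose at the adjusted p but under the fold cut-off, and the remaining 4 besides PARP14 did not pass the test, with log2 fold changes between 0.09 and 0.20. PARP14, a mono-ADP-ribosyltransferase on the same stretch, had 767, 818 and 788 normalized counts in KYSE70 and 996, 1142 and 1135 in the clone. Its groups did not overlap, and its log2 fold change of 0.46 ± 0.08 passed the adjusted p (0.00033, limma). The median log2 fold change of chromosome arm 3q was 0.28, and relative to it PARP14 changed by 0.18. PARP12, a related enzyme on chromosome 7, went the other way, from 743 ± 21.9 to 615 ± 19.4 (SD, n = 3; log2 fold change -0.27, adjusted p = 0.013, limma).

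**Figure D2:**
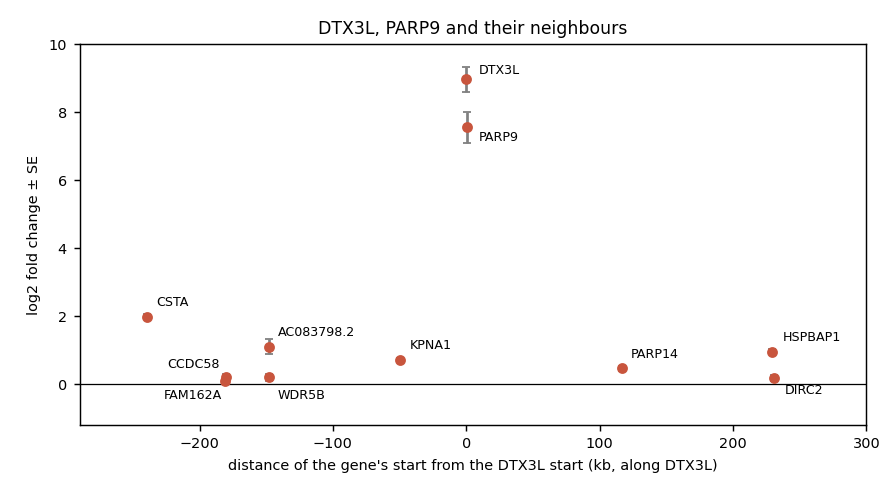
Log2 fold change (NRF2null-KYSE70 over KYSE70, bars ± SE) of DTX3L and of the 10 tested genes within 250 kb, against the distance of each gene's start from the DTX3L start in kb along its strand. DTX3L at 8.97 and PARP9 at 7.57 stand above CSTA at 1.99, and the others lie between 0.09 and 1.10.

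The oligoadenylate synthetases are switched on by double-stranded RNA and make oligoadenylates, a second messenger of the antiviral response. Their genes lie side by side on chromosome 12, and they moved apart. OAS1 (chr12:112905856-112933219) had 181, 235 and 238 normalized counts in KYSE70 and 40.6, 80.4 and 81.1 in the clone. OAS3 (chr12:112938051-112976460), at 90.2 normalized counts per kb of exon in KYSE70 beside 16.8 for OAS1, had 1719, 1568 and 1596 in KYSE70 and 691, 607 and 564 in the clone. Both fell without overlap, with log2 fold changes of -1.74 ± 0.26 for OAS1 and -1.39 ± 0.09 for OAS3 (adjusted p = 9.24e-05 and 3.38e-08, limma). OAS2 (chr12:112978395-113011723), next to OAS3 on the same strand, was at the edge of detection, with 6.23, 0 and 5.27 normalized counts in KYSE70 and 15.2, 18.6 and 24.0 in the clone. It was higher in every library of the clone (log2 fold change 2.48 ± 0.78, adjusted p = 0.016, limma) on 12 reads in KYSE70 against 55 in the clone. This value moved to 1.57 without the second KYSE70 library, which had no read, and to 1.53 with a pseudocount of 5. Chromosome arm 12q had a median log2 fold change of -0.38, and relative to it OAS1 changed by -1.36, OAS3 by -1.02 and OAS2 by 2.86, so the directions held under this and the 3 other scalings. Among the other neighbours within 250 kb of OAS3, RASAL1 was higher (1.33), and CFAP73, DDX54, RITA1, TPCN1 and IQCD did not pass the test, with log2 fold changes from -0.32 for IQCD to 0.10 for DDX54. OASL, a relative without synthetase activity on the same arm, did not pass the test, with 7.12, 30.8 and 7.38 against 18.3, 34.3 and 22.8.

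Among the other enzymes that bind, edit or cut RNA, ADAR and EIF2AK2 had many reads and differed little between the lines. ADAR, the adenosine deaminase that edits RNA, had 18159 ± 499 normalized counts in KYSE70 and 17044 ± 935 in the clone, and the groups overlapped (log2 fold change -0.09, adjusted p = 0.13, limma). EIF2AK2, the kinase PKR that halts translation, had 9548 ± 213 and 8178 ± 727 (SD, n = 3). Its groups did not overlap, and its log2 fold change of -0.23 passed the adjusted p (0.006, limma). These 2 genes made up between 51.6% and 58.6% of the normalized counts summed over all 47 genes in each library, and that sum fell from between 52067 and 53092 in KYSE70 to between 44166 and 46255 in the clone. ISG20, an exonuclease, had 8.004, 16.3 and 25.3 in KYSE70 and 23.3, 30.4 and 30.8 in the clone, and these ranges overlapped.

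The sensors that start the response detect foreign RNA in the cytoplasm. IFIH1, which encodes MDA5 and binds long double-stranded RNA, had 24.9, 26.3 and 23.2 normalized counts in KYSE70 and 13.2, 12.7 and 2.28 in the clone. The parental libraries lay closely together and above every library of the clone, in which the third library was far below the others. Its log2 fold change was -1.58 ± 0.59 (adjusted p = 0.036, limma), and -0.88 without that library (adjusted p = 0.12), which ends the call. DDX58, which encodes RIG-I and binds short RNA with a triphosphate end, had 189, 196 and 213 in KYSE70 and 235, 231 and 279 in the clone. DHX58, which encodes LGP2 and tunes both, had 93.4, 80.7 and 140 in KYSE70 and 60.9, 91.2 and 44.5 in the clone. Neither passed the test, with log2 fold changes of 0.31 for DDX58 and -0.69 for DHX58 (adjusted p = 0.075 and 0.062, limma). DDX58 was higher in every library of the clone, whereas the ranges of DHX58 overlapped. TLR3, the endosomal receptor for double-stranded RNA and not one of the 47, fell from 60.5, 72.6 and 71.7 to 20.3, 14.7 and 3.42 (log2 fold change -2.60, adjusted p = 0.00083, limma).

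Of the 4 transcription factors of the list, STAT2 and IRF1 were lower at the adjusted p, and neither reached the fold cut-off. STAT2, a factor activated by type I and type III interferons, had 1951, 2031 and 2021 normalized counts in KYSE70 and 1559, 1595 and 1627 in the clone. The difference was small beside those of the called genes but free of overlap (log2 fold change -0.33 ± 0.06, adjusted p = 0.00037, limma). STAT2 lies on 12q, and relative to the median of that arm its sign turned (0.051, adjusted p = 0.49). IRF1, which activates many of the same promoters, had 1234, 1243 and 1148 in KYSE70 and 722, 793 and 857 in the clone, a log2 fold change of -0.61 ± 0.08 (adjusted p = 3.77e-05, limma) that was -0.73 relative to its arm. An annotated antisense gene, IRF1-AS1, covers 22.9% of the exon length of IRF1 on the other strand. IRF9, the DNA-binding part of the ISRE complex, had 22.2, 22.7 and 23.2 in KYSE70 and 4.06, 7.84 and 18.3 in the clone. All 3 libraries of the clone lay under the parental ones but spread widely, and the log2 fold change of -1.32 ± 0.54 missed the threshold (adjusted p = 0.053, limma). Without the third library of the clone it was -1.83 (adjusted p = 0.014), and without the first it was -0.86 (adjusted p = 0.18). IRF7, which amplifies the response, had no read in any library, which allows up to 3 reads in each.

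The IFIT family, whose proteins bind viral RNA that lacks the host cap modification, was split. IFIT1 had 557, 640 and 600 normalized counts in KYSE70 and 265, 408 and 414 in the clone, and it fell by 0.75 on the log2 scale (adjusted p = 0.0012, limma). IFIT3, which stabilises IFIT1, had 92.5, 97.96 and 82.2 in KYSE70 and 158, 128 and 153 in the clone, and it rose by 0.68 (adjusted p = 0.0073, limma). Neither pair of groups overlapped, and both changes were under the fold cut-off. IFIT2 (log2 fold change 0.26) and IFIT5 (-0.22) did not pass the test, and their ranges overlapped.

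**Figure D3:**
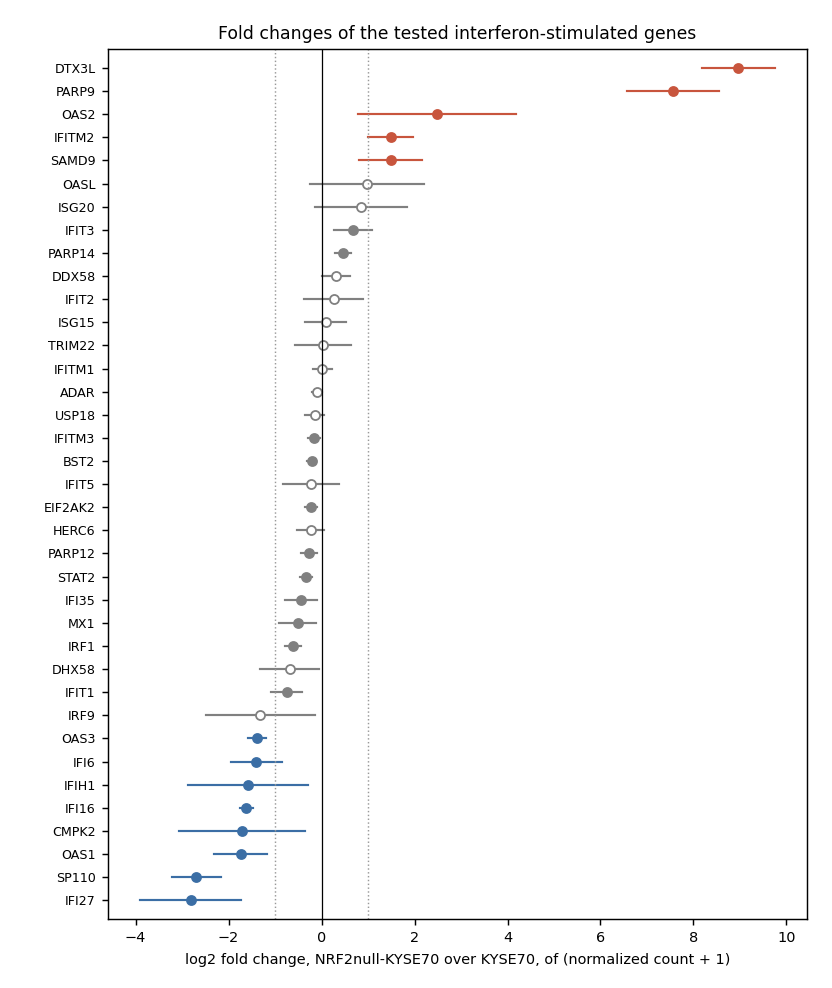
Log2 fold change of (normalized count + 1), NRF2null-KYSE70 over KYSE70, for the 37 tested interferon-stimulated genes in order of size, with 95% confidence intervals and dotted lines at a change of 1. Filled points passed the adjusted p, and the 5 red and 8 blue ones also the fold cut-off, from DTX3L at 8.97 to IFI27 at -2.82.

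The membrane proteins that stop viruses at entry or exit differed little, except for IFITM2. BST2, or tetherin, which holds budding virus at the cell surface, had the highest level of the list per kilobase of exon in both lines, 6463 normalized counts per kb in KYSE70 and 5565 in the clone. Its change was small and clear of overlap (log2 fold change -0.22, adjusted p = 0.0014, limma). The IFITM proteins block the fusion of virus with the cell membrane. IFITM3, at 1354 normalized counts per kb in KYSE70 beside 392 for IFITM1 and 29.7 for IFITM2, had 3850 ± 201 in KYSE70 and 3453 ± 202 in the clone (SD, n = 3; log2 fold change -0.16, adjusted p = 0.041, limma). IFITM1 had 652 ± 26.2 and 660 ± 55.1, with a log2 fold change of 0.01 that did not pass the test. IFITM2, next to IFITM1 on chromosome 11, had 38.2, 49.0 and 55.9 in KYSE70 and 135, 137 and 129 in the clone. The groups stood well apart, and the log2 fold change was 1.48 ± 0.22 (adjusted p = 8.78e-05, limma). The IFITM genes are related copies that are similar in sequence to differing degrees. Their counts can depend on how reads that match more than 1 of them were handled, which the sources used here do not give. Within 250 kb of IFITM2, 20 genes were tested and their median log2 fold change was -0.12.

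Other effectors at membranes and mitochondria were scarce. MX1, a GTPase that traps viral capsids, had 180 ± 8.79 in KYSE70 and 128 ± 28.4 in the clone (SD, n = 3; log2 fold change -0.51, adjusted p = 0.030, limma), and its neighbour MX2 had no read in any library. CMPK2, a mitochondrial nucleotide kinase, had 32.9, 22.7 and 13.7 in KYSE70 and 9.13, 1.96 and 10.3 in the clone. The lowest parental library was only a little above the highest library of the clone, and the log2 fold change of -1.71 ± 0.62 was close to the threshold (adjusted p = 0.032, limma). The call was lost in 5 of its 17 alternative analyses, 3 of which left out 1 library (first or second of KYSE70, second of the clone), with an adjusted p of up to 0.13. RSAD2, or viperin, lies next to CMPK2 on the other strand, shares 351 exon bases with it and was too low to test, with means of 4.65 and 3.13. PLSCR1, a phospholipid scramblase, had 2 reads in KYSE70 and 42 in the clone. The ratio of these reads, scaled for depth, was 23.1 with a 95% counting interval of 6.02 to 197. The mean of PLSCR1 was too low for the test.

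The ISG15 system attaches the ubiquitin-like protein ISG15 to targets and removes it again. ISG15 had 147, 129 and 99.1 normalized counts in KYSE70 and 142, 142 and 111 in the clone, and its ranges overlapped (log2 fold change 0.08, with a 95% interval of -0.35 to 0.52). USP18, the protease that removes ISG15 and damps the receptor, had 557 ± 21.2 and 502 ± 26.8 (SD, n = 3; log2 fold change -0.15, adjusted p = 0.19, limma). HERC6 had 306 ± 21.5 and 260 ± 29.6 (SD, n = 3; log2 fold change -0.24, adjusted p = 0.14, limma). HERC5, the human ligase for ISG15, had no read in KYSE70 and 5 in the clone.

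Of the remaining 12 effectors 7 were tested, and 4 of these were lower past the threshold, a call made for 7.43% of all genes tested. IFI16, a nuclear sensor of DNA, fell from 3555, 3506 and 3246 normalized counts in KYSE70 to 1198, 1083 and 1079 in the clone. The clone kept 32.6% of the parental level, and the log2 fold change was -1.62 ± 0.07 (adjusted p = 7.04e-10, limma). SP110, a component of nuclear bodies on chromosome 2, had 178, 173 and 199 in KYSE70 and 31.4, 20.6 and 32.0 in the clone, 15.3% of the parental level. Its log2 fold change was -2.69 ± 0.24 (adjusted p = 1.03e-06, limma), while its relative SP100 nearby had 722 ± 56.5 and 784 ± 140 (SD, n = 3) and did not pass the test. A noncoding gene on the other strand covers 17.8% of the exon length of SP110. The groups of both IFI16 and SP110 were far apart.

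IFI27 and IFI6 encode small related proteins of internal membranes that are among the most strongly interferon-induced transcripts. IFI27 had 26.7, 29.0 and 54.8 normalized counts in KYSE70 and 3.04, 4.90 and 4.57 in the clone, 11.3% of the parental level. Its log2 fold change was -2.82 ± 0.50 (adjusted p = 0.00037, limma). Of the 6 genes tested within 250 kb of it, ASB2 was also lower past the threshold (-4.67), and the relative IFI27L1 had a log2 fold change of -0.40. IFI6 had 174, 167 and 185 in KYSE70 and 98.4, 47.1 and 60.5 in the clone, 39.2% of the parental level (log2 fold change -1.41 ± 0.25, adjusted p = 0.00037, limma). Its annotated exons share 23.1% of their length with a noncoding gene on the same strand. The groups of both genes were free of overlap, although the third KYSE70 library stood high for IFI27 and the first library of the clone for IFI6.

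SAMD9, a large cytoplasmic protein that restricts poxviruses and cell growth, ran against this direction. It had 24.9, 49.9 and 59.0 normalized counts in KYSE70 and 125, 97.1 and 139 in the clone, with every library of the clone above the parental ones. Its log2 fold change was 1.48 ± 0.31 (adjusted p = 0.0013, limma). Its neighbour and copy SAMD9L had 16 reads in KYSE70 and 1 in the clone, a ratio of 0.0689 with a 95% counting interval of 0.00164 to 0.443, too few for the test. IFI35 fell from 216 ± 17.6 to 159 ± 20.3 (SD, n = 3; log2 fold change -0.44, adjusted p = 0.028, limma). TRIM22 had 108 ± 46.9 and 105 ± 18.8 and did not pass the test. IFI44, XAF1 and EPSTI1 had at most 4 reads in a line, and IFI44L had none.

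The size of a change and the level of the gene did not go together in 1 way. Tested genes with a mean of at least 1000 over all libraries were ADAR, EIF2AK2, BST2, IFITM3, IFI16, STAT2 and OAS3. Of these 7, 6 were lower at the adjusted p, and IFI16 and OAS3 also passed the fold cut-off. Among all genes tested, at any level, 28.3% were lower at the adjusted p and 7.43% were lower past the threshold. The share among genes of a like level was not taken. On the whole, 24 of the 47 genes had a mean of at least 100 in KYSE70 and 25 in the clone. Per kilobase of exon, BST2, ADAR, IFITM3 and EIF2AK2 took the first 4 places in both lines in the same order. IFI16 moved from the fifth place at 649 normalized counts per kb to the sixth at 212. This order depends on the exon lengths as annotated.

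The other genes of the interferon pathway were read from a list of 98 genes, of which 62 were tested. Of these, 2 were higher and 10 lower past the threshold, and 19 were higher and 25 lower at the adjusted p alone. The shares past the threshold were 3.23% higher and 16.1% lower, beside 7.23% and 7.43% of all genes tested, and at the adjusted p alone 29.3% of all genes were higher and 28.3% lower. DDX60L among the higher genes and TRIM38 among the lower ones reached a mean of 10 only in the line with the higher level. The median log2 fold change was -0.03. Ligands were almost absent: of 21 interferon genes, 17 had no read in any library, and the most for any of them was 4 reads in 1 line. The receptor chains were present in both lines. IFNGR2, a chain of the type II receptor, rose from 3304 ± 107 to 6294 ± 72.7 (SD, n = 3; log2 fold change 0.93, adjusted p = 6.41e-09, limma). Its chromosome arm, 21q, had a median of 0.27, and relative to that IFNGR2 changed by 0.66. IFNLR1, the type III receptor chain, rose from 674 ± 96 to 988 ± 73.1 (SD, n = 3; log2 fold change 0.56, adjusted p = 0.00066, limma). The type I receptor chains IFNAR1 (log2 fold change 0.04) and IFNAR2 (0.16), with IFNGR1 (0.13) and IL10RB (-0.11), did not pass the test. IFNAR1, IFNAR2 and IL10RB also lie on 21q, and relative to its median they changed by -0.23, -0.11 and -0.37.

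Among the kinases that sit on these receptors, JAK1 stood out. It serves the type I, type II and type III receptors, and it had 1788, 1730 and 1734 normalized counts in KYSE70 and 210, 239 and 223 in the clone, 12.8% of the parental level. No library came near the other line, and the log2 fold change was -2.96 ± 0.09 (adjusted p = 4.22e-11, limma). JAK2 fell by 0.28 and TYK2 by 0.14 on the log2 scale. STAT3, a factor shared with many cytokines, rose by 0.20. IRF5 rose from 57.8 ± 1.7 to 116 ± 18.3 (SD, n = 3; log2 fold change 0.98). IRF2 (-0.10) and IRF3 (0.06) did not pass the test.

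Of the genes that sense and relay, only TLR3 passed the fold cut-off among the 9 tested. MAVS, the adaptor of the RNA sensors, fell by 0.83 on the log2 scale but lies on chromosome arm 20p, whose median was -0.77, and TBK1 fell by 0.38 on 12q, whose median was -0.38. STING1, the adaptor of DNA sensing, rose by 0.63, and the kinase IKBKE fell by 0.65. Of the inhibitors, SOCS1 fell from 42.9 ± 11.9 to 15.9 ± 1.73 (SD, n = 3; log2 fold change -1.34), a call that was lost relative to the median of 16p (-0.85, adjusted p = 0.063, limma). SOCS3, which acts on related receptors, rose by 0.84. SAMHD1, a nucleotide hydrolase that limits viral DNA synthesis, fell from 2647 ± 71.1 to 1119 ± 39 (SD, n = 3; log2 fold change -1.24), and relative to the median of 20q it changed by -0.999, just under the fold cut-off.

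Further interferon-stimulated genes outside the 47 gave 8 of 34 past the threshold, 2 higher and 6 lower. Those shares were 5.88% higher and 17.6% lower, beside 7.23% and 7.43% of all genes tested. GBP2, a guanylate-binding protein induced mainly by type II interferon, fell from 1699 ± 83.5 to 225 ± 45.7 (SD, n = 3; log2 fold change -2.93). TNFSF10, the death ligand TRAIL, fell by 2.03 on the log2 scale, CASP1, the protease of inflammasomes, by 1.78, and TRIM38 by 4.07. TRIM21 (-1.08) and RBCK1 (-1.02) were just past the cut-off, and RBCK1 changed by -0.24 relative to the median of 20p. DDX60L, a helicase-related gene, had 1 read in KYSE70 and 64 in the clone, a ratio of 70.5 with a 95% counting interval of 12.2 to 2828, and its neighbour DDX60 rose by 0.40. SAT1, which breaks down polyamines, rose from 6380 ± 182 to 15122 ± 858 (SD, n = 3; log2 fold change 1.24).

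**Figure D4:**
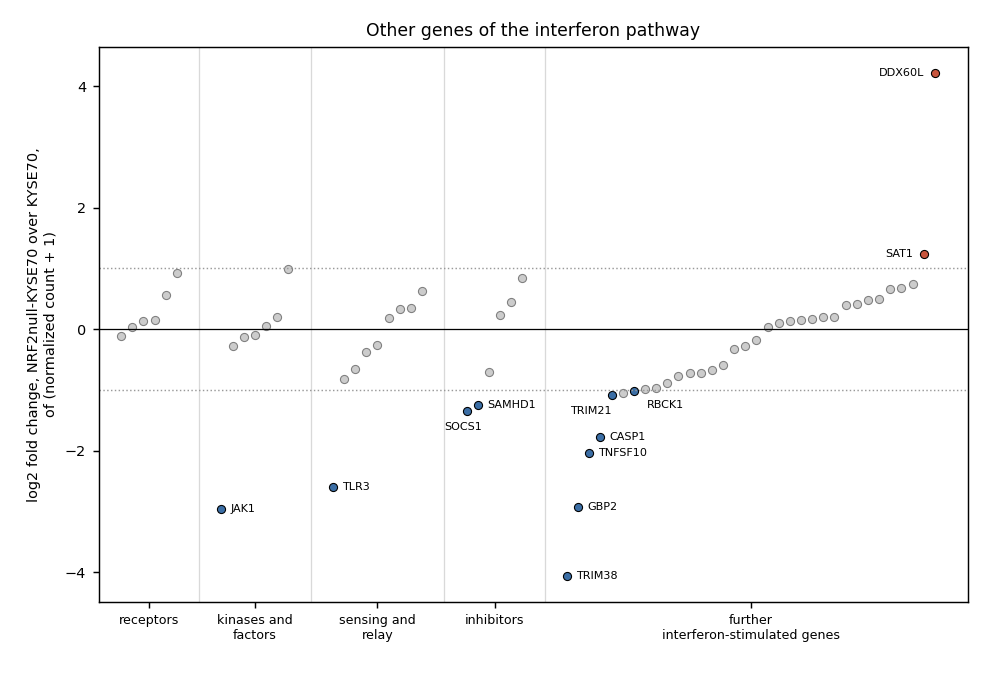
Log2 fold change of (normalized count + 1), NRF2null-KYSE70 over KYSE70, for the 62 tested genes of the wider interferon pathway, 1 point per gene, ordered by size within 5 roles, with dotted lines at a change of 1. The 12 named points passed the threshold, 2 higher (red) and 10 lower (blue), with JAK1 at -2.96 and TRIM38 at -4.07.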

How the data were processed

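RNA from untreated KYSE70 and NRF2null-KYSE70 cells, 3 libraries each, was sequenced in bulk. Per the labels and the study's methods, the authors trimmed reads with cutadapt 1.12, aligned them with STAR 2.6.90c, counted them per gene with featureCounts 1.5.1 and deposited counts normalized with DESeq2, a signal on a linear scale. The submitters' processing notes list hg38 and mm10. Strand setting and treatment of multi-mapping reads are not given in the sources used here. Every value was a whole multiple (tolerance 0.01) of what 1 read was worth in its library, between 0.889 and 1.14, so reads were recovered (100% whole).

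Genes with a mean of at least 10 were tested with limma 3.58.1 (trend) on log2(normalized count + 1), adjusted (Benjamini-Hochberg) over all 15994. Fold changes on this scale understate low genes. A gene was called at an adjusted p under 0.05 with a change of 1 log2 unit or more in either direction, the study's cut-offs. edgeR 4.0.16 and DESeq2 1.42.0 on the recovered reads, other scalings and filters, and leaving out each library were alternatives. Scripts were tested on simulated data. Positions are from GENCODE 44, and arm-relative values subtract the median of the gene's chromosome arm. Counting intervals are exact and cover counting error only. The ratios given with them are of reads pooled over each line and scaled for depth, not of mean normalized counts. The table's columns name the line but no replicate number, so libraries are numbered in table order. Genes past the threshold, transcription factors and RNA sensors were named with every library, others by line or in counts. The 47 genes, the pathway and marker lists were chosen with earlier results of these data known, and 2 genes first placed on the pathway list are not reported here. Where nothing says that libraries came from separate cultures, p-values measure only the spread between them, which may be technical.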

Additional observations from a re-analysis of the deposited data

How the results depend on the processing

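Of 131 summary values recomputed under the alternatives, 123 stayed within 1.5 times or within the spread of the main value. Testing against a change of 1 log2 unit (the treat test) gave 2 interferon-stimulated genes higher and 4 lower, a filter at a mean of 50 gave 5 lower, and leaving out the genes whose mean was under 10 in 1 line, an alternative added after seeing the data, gave 2 higher and 5 lower. Scaling by library totals moved the median log2 fold change to -0.30. For the wider pathway list the number higher fell from 2 to 1 with a filter at a mean of 50 and ranged from 1 to 2 with 1 library left out, the low value without the third library of the clone, where DDX60L fell under the mean of 10, and it was 3 with quantile normalization and with DESeq2. STAT2 reversed relative to its chromosome arm (0.051). IFIH1 lost its call in 7 of 17 alternatives (adjusted p up to 0.12), among them each of the KYSE70 libraries left out, and OAS2 could not be tested without the third library of the clone because its mean fell under 10. IRF9 was called in 4 alternatives at the adjusted p. DESeq2 and edgeR on the recovered reads called the same 13 genes. No paired analysis was possible because columns are named by line, with nothing to link libraries across lines. The value of genes with under 100 reads in a line is limited by depth.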
